A study of Arabidopsis thaliana with 32 samples.

Results

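*HY5*, *HYH* and 8 genes of B-box (BBX) zinc finger proteins (*BBX20*, *BBX21*, *BBX22*, *BBX24*, *BBX25*, *BBX28*, *BBX31* and *BBX32*) are described here, taken by their locus identifiers as 10 of the 27655 genes of a seedling RNA-seq table. The table holds 4 genotypes of Arabidopsis, namely *pif4-2*, *hmr-22*, *med14-2* and the wild-type accession Col-0, each grown at 27°C and at 20°C. All seedlings grew for 96 h in continuous red light of 50 µmol m-2 s-1, and each of the 8 groups has 4 biological replicates, 32 libraries in all. The mutants share the Col-0 background. *pif4-2* and *med14-2* (called *med14* in the study) are T-DNA insertion alleles of the bHLH factor PIF4 and of the Mediator tail subunit MED14, and *hmr-22* is a substitution allele of HEMERA (HMR), a protein that acts with PIF4 and in plastids. Each mutant is represented by a single allele, and whole seedlings were taken, so that fewer cells of a type and less RNA per cell cannot be told apart.

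HY5 is a bZIP transcription factor that binds promoters of light-induced genes and promotes seedling de-etiolation, and HYH is its closest relative. In darkness the COP1/SPA ubiquitin ligase marks HY5 for degradation, and light lifts this. B-box proteins bind HY5 or its partners: BBX20, BBX21 and BBX22 promote light-grown development with HY5, BBX24, BBX25, BBX28 and BBX32 act against it, and BBX31, a small protein with a single B-box, represses seedling photomorphogenesis in visible light and promotes the response to UV-B. The comparisons address whether transcripts of these factors differ with warmth, and whether that difference is the same without PIF4, HMR or full MED14 function.

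The libraries held 11911240 to 16883322 mapped fragments (median 13978348.5), and the part of them in nuclear genes was 35.2 to 74.7% in *hmr-22* and 55.9 to 96.1% in the other groups, the 55.9% being *med14-2* replicate 1 at 27°C. Values are FPKM (fragments per kilobase of exon, relative to the library's mapped total), divided by a factor per library ("scaled FPKM") that was 0.197 to 0.647 in *hmr-22* and 0.871 to 1.83 elsewhere. This scaling moves *hmr-22* most. Over all genes tested, the median log2 difference of *hmr-22* from Col-0 was -0.13 at 27°C and -0.29 at 20°C with scaling, against -1.45 and -1.69 for the values as deposited, and within Col-0 the median change with warmth was 0.02 with scaling and 0.49 without. *HMR* was at 0.0766 to 1.31 FPKM in *hmr-22*, against 27.0 to 55.3 FPKM in Col-0. With scaling too, every *hmr-22* library was far below every Col-0 library. The study describes *hmr-22* as a weak substitution allele, which does not by itself account for *HMR* values so low. The reason was not tested. *PIF4* was at 4.02 to 6.96 FPKM in *pif4-2* and 5.49 to 26.6 in Col-0. *MED14* was at 6.11 to 11.8 FPKM in the libraries labelled *med14-2* at 27°C, against 8.03 to 9.68 in Col-0, and at 9.73 to 10.4 FPKM at 20°C, against 4.97 to 6.31 FPKM in Col-0, where the groups did not overlap (nor did the scaled values, 7.82 to 8.56 in *med14-2* against 4.37 to 5.40 in Col-0). For a line described as having less *MED14* transcript, these values go against the label, and *med14-2* stands below for the libraries labelled so. FPKM over the whole gene do not show whether the transcript is intact. All 5 green tissue markers were present in every group. Their summed scaled FPKM was 23752 to 40099 in *hmr-22* at 27°C and 55171 to 73342 at 20°C, 8942 to 10385 and 19546 to 21746 in *med14-2*, 16000 to 19482 and 21488 to 25731 in *pif4-2*, and 11264 to 13241 and 16150 to 20060 in Col-0. As deposited, the sums at 27°C were 14543 to 18179 FPKM in *hmr-22*, below the 19834 to 21642 of Col-0. At 20°C they were 14475 to 25974 against 18745 to 24413 and overlapped, so the higher sums in *hmr-22* depend on the scaling. The 5 root markers summed to 0 to 1.79 scaled FPKM in *hmr-22* at 27°C (*RHS15* at 0 in all 4 libraries) and 13.0 to 28.9 at 20°C, against 5.02 to 10.6 and 34.9 to 40.7 in Col-0. The 5 seed markers stayed under 4 scaled FPKM in sum except in *med14-2* at 20°C, where they reached 30.2. The part of these differences in the results was not tested.

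All 10 genes passed the filter on low values, so all were among the 19937 tested. In Col-0 at 20°C, *BBX24* had the highest level per length (36.6 ± 2.74 scaled FPKM, SD, n = 4), followed by *BBX21* (23.0 ± 1.63), *BBX25* (8.47 ± 1.78), *BBX22* (8.38 ± 0.965), *HYH* (7.71 ± 1.02) and *HY5* (4.56 ± 0.186). *BBX25*, *BBX22* and *HYH* did not differ beyond their spread. Below them were *BBX28* (3.10 ± 0.828), *BBX20* (1.61 ± 0.226), *BBX31* (0.916 ± 0.198) and *BBX32* (0.346 ± 0.134). *BBX32* rested on only 4 to 11 fragments per library there and *BBX24* on 689 to 1084, so the lowest values carry most counting error.

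**Figure D1:**
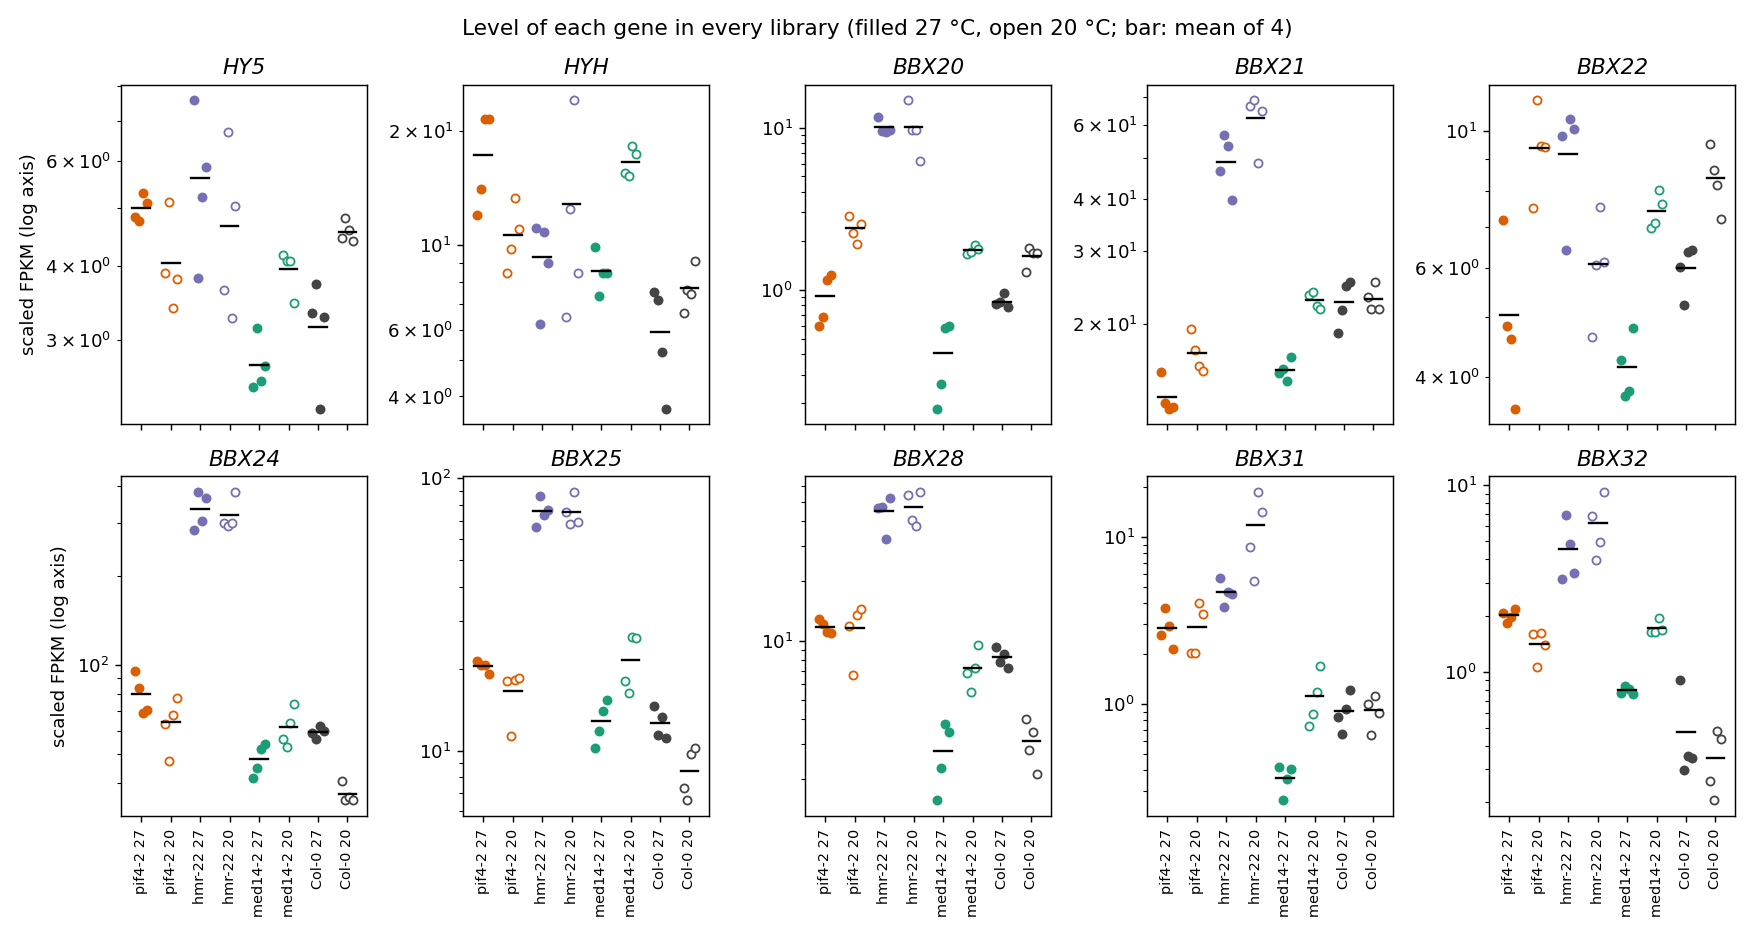
Scaled FPKM (log axis) of each of the 10 genes in all 32 libraries, with filled points for 27°C, open points for 20°C, a colour per genotype and a bar at the mean of 4 replicates. *BBX24*, *BBX25* and *BBX28* are highest in all 8 *hmr-22* libraries, and *BBX28* is above its 20°C level in Col-0 at 27°C and below it in *med14-2*.

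A change between temperatures or genotypes passed when limma's adjusted p was under 0.001, the fold was 2 or more, and the mean FPKM of the higher group was above 1. With warmth, none of the 10 genes rose in *pif4-2* and 1 fell (*BBX20*), where 3% of all tested genes rose and 2.7% fell. In *hmr-22* none rose and 1 fell (*BBX31*), beside 13.8% and 8.3% of all genes, and in the libraries labelled *med14-2* none rose and 2 fell (*BBX20* and *BBX28*), beside 1.62% and 2.83%. In Col-0 1 rose (*BBX28*) and none fell, beside 2.24% and 2.99%. The median log2 change of the 10 genes was -0.86 in *med14-2*, where all 10 values were negative with scaling and without it, 0.18 in *pif4-2*, -0.03 in *hmr-22* and -0.02 in Col-0. Over all tested genes the medians were -0.0039, -0.03, 0.18 and 0.02.

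**Figure D2:**
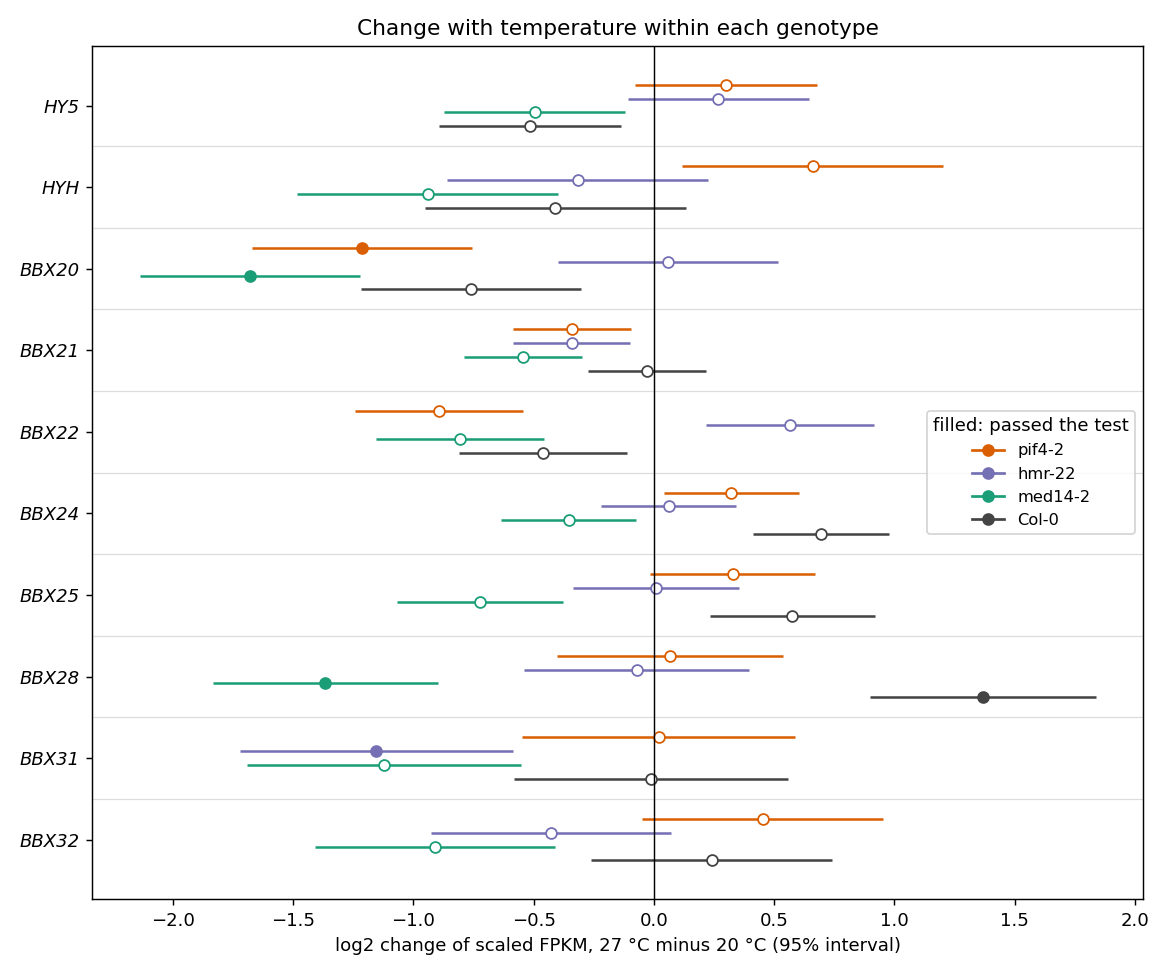
Log2 change of scaled FPKM at 27°C over 20°C for each gene (rows) in *pif4-2*, *hmr-22*, *med14-2* and Col-0, with 95% intervals and filled points where the change passed the test. All 10 *med14-2* points lie below 0, and *BBX28* passed in opposite directions in *med14-2* (-1.37) and Col-0 (1.37).

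Differences between genotypes at one temperature were mostly upward. At 27°C, 3 of the 10 genes were higher in *pif4-2* than in Col-0 (3.38% of all tested genes were) and none lower (1.1%), 7 were higher in *hmr-22* (23.6%) and none lower (24%), and none was higher in *med14-2* (1.38%) while 1 was lower (1.85%). At 20°C, 2 genes were higher in *pif4-2* (0.677%), 7 genes in *hmr-22* (21.5%) and 3 genes in *med14-2* (1.24%), and none was lower in any of them (0.105%, 28% and 0.717%). The same Col-0 libraries serve in all 3 comparisons at a temperature. The *hmr-22* counts turn on the scaling. For the values as deposited, 2 genes were higher at 27°C (6.74% of all tested genes were) and none lower (56.5%). At 20°C 5 were higher (4.72%) and 3 lower (60.4%).

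**Figure D3:**
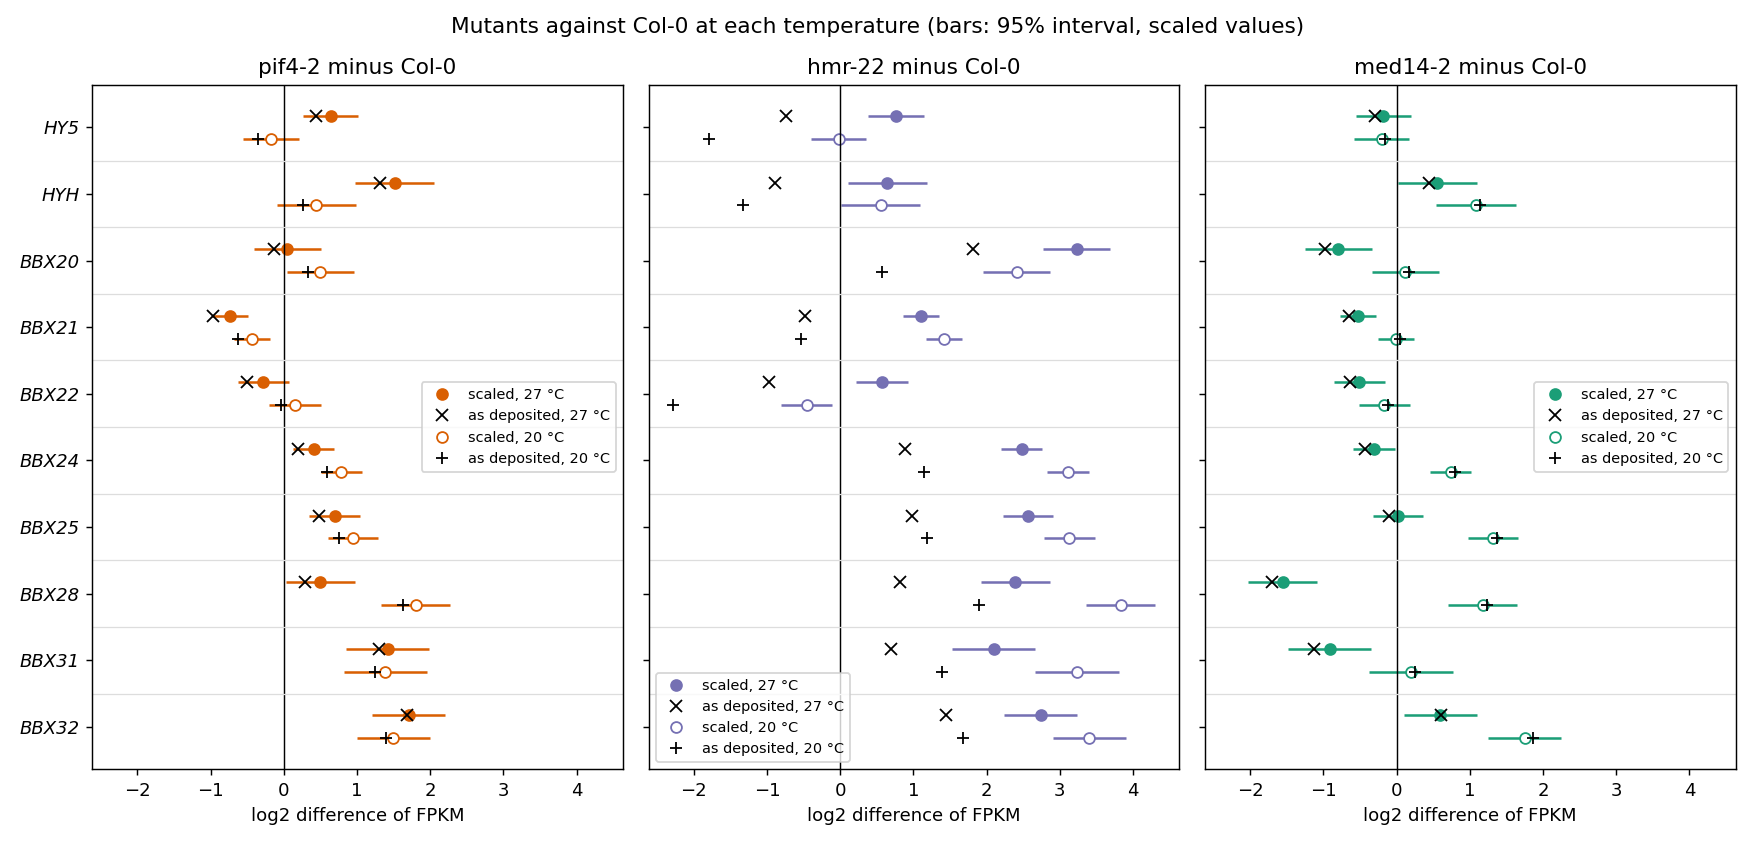
Log2 difference of FPKM of each gene between *pif4-2*, *hmr-22* or *med14-2* and Col-0, at 27°C (filled) and 20°C (open), with 95% intervals for scaled values and crosses for the values as deposited. The crosses lie close to the points in *pif4-2* and *med14-2* and far to their left in *hmr-22*, where *HY5*, *HYH*, *BBX21* and *BBX22* change sign at 27°C and *HYH* and *BBX21* at 20°C.

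*HY5* (AT5G11260, chromosome 5, 3593335 to 3595073, minus strand, TAIR10) had 3.34, 3.72, 2.30 and 3.29 scaled FPKM in Col-0 at 27°C, against 4.45, 4.81, 4.60 and 4.39 at 20°C. All 4 warm libraries were below all 4 cool ones, but the log2 change of -0.51 (SE 0.18, limma adjusted p = 0.040) did not reach the threshold. In *med14-2* the change was almost as large, with 2.50, 3.15, 2.56 and 2.71 scaled FPKM at 27°C and 4.17, 4.08, 4.08 and 3.46 at 20°C (log2 change -0.50, SE 0.18). In *pif4-2* it was 4.84, 4.75, 5.31 and 5.09 at 27°C and 3.89, 5.12, 3.40 and 3.81 at 20°C, so the groups overlapped (log2 change 0.30, SE 0.18). These orders depend on the scaling. As deposited, the warm and cool *HY5* libraries overlapped in Col-0 (log2 change -0.04) and in *med14-2* (-0.18). In *pif4-2* every warm library was then above every cool one (0.76), a change that did not pass. The *hmr-22* libraries had 7.58, 3.82, 5.21 and 5.86 scaled FPKM at 27°C and 3.65, 6.70, 3.27 and 5.05 at 20°C, the widest spread of any genotype. Against Col-0, *HY5* in *hmr-22* had a log2 difference of 0.76 at 27°C, below the fold of 2, and -0.02 at 20°C, while the values as deposited gave -0.74 and -1.79, the second of which passed, so its direction at 27°C depends on the scaling. The 8 group means of *HY5* lay between 2.73 and 5.62 scaled FPKM, and the libraries of each pair of neighbours in their order overlapped. The 150 bases before the annotated start of *HY5* are shown, with capitals for the letters of a PBE-box (CACATG on either strand) and a T/G-box (CACGTT), which bHLH and bZIP factors are known to bind.
HY5, chr5:3595074-3595223, minus strand: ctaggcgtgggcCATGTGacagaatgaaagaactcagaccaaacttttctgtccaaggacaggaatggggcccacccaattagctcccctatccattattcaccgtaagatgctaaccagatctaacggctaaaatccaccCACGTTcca
The PBE-box begins 138 and the T/G-box 9 bases before the start, and a further PBE-box begins 799 bases before it. Of the 1000-base windows before 27443 nuclear genes, 37.7% hold a PBE-box and 23.8% a T/G-box, so these matches are common.

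*HYH* (AT3G17609) differed between *pif4-2* and Col-0 in the warm. At 27°C it had 12.0, 14.1, 21.5 and 21.5 scaled FPKM in *pif4-2*, against 7.54, 7.19, 5.22 and 3.71 in Col-0. Every *pif4-2* library was above every Col-0 library, and the difference passed (log2 1.51, SE 0.27, limma adjusted p = 7.1e-05). At 20°C it had 8.48 to 13.3 scaled FPKM in *pif4-2* and 6.64 to 9.10 in Col-0, which overlapped (log2 0.44, SE 0.27). In *med14-2* at 20°C, *HYH* had 15.5, 15.2, 18.3 and 17.4 scaled FPKM, all above the Col-0 values, but the log2 difference of 1.09 missed the threshold (limma adjusted p = 0.0050). In *hmr-22*, *HYH* was 0.65 above Col-0 at 27°C and 0.55 above it at 20°C on the log2 scale, with neither difference passing, and the values as deposited gave -0.89 and -1.33, the second of which passed.

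Of the 3 promoting B-box genes, *BBX20* (AT4G39070, also BZS1, known to act against brassinosteroid growth) moved most with temperature. It had 0.184, 0.263, 0.580 and 0.599 scaled FPKM in *med14-2* at 27°C, against 1.67, 1.70, 1.90 and 1.80 at 20°C. The groups did not overlap, and *BBX20* fell by 1.68 on the log2 scale (SE 0.22, limma adjusted p = 1.2e-06), from counts of 4 to 21 fragments at 27°C and 43 to 50 at 20°C. In *pif4-2* it had 0.595, 0.676, 1.15 and 1.24 at 27°C and 2.87, 2.24, 1.91 and 2.54 at 20°C, and fell by 1.21 (SE 0.22, limma adjusted p = 0.00012). That call was lost without *pif4-2* replicate 1 or without replicate 2 at 27°C (log2 change -1.04 and -1.09), for the values as deposited (-0.83), with a pseudocount of 1 (-0.83) and in a fit of those 2 groups alone (-1.23). A pseudocount of 1 also put the *med14-2* change just under the fold of 2 (-0.99). In Col-0 the log2 change of -0.76 did not pass, and as deposited it was -0.36 with overlapping groups. On the scaled values, all 4 warm Col-0 libraries (0.778 to 0.959) were below the cool ones (1.28 to 1.80). *BBX20* in *hmr-22* stood apart from this, at 9.45 to 11.6 scaled FPKM at 27°C and 6.21 to 14.7 at 20°C (log2 change 0.06, SE 0.22), the highest level of the gene in any genotype. Against Col-0, *BBX20* was higher in *hmr-22* by 3.23 on the log2 scale at 27°C and by 2.41 at 20°C (1.81 and 0.56 as deposited, of which the first passed).

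*BBX21* (AT1G75540), which binds the *HY5* promoter and activates it, had log2 changes with warmth of -0.34 in *pif4-2*, -0.34 in *hmr-22*, -0.54 in *med14-2* and -0.03 in Col-0 (SE 0.12 each), none passing. It had 12.6 to 15.4 scaled FPKM in *pif4-2* and 14.6 to 16.7 in *med14-2* at 27°C, against 19.1 to 25.2 in Col-0, below the fold of 2 in both. It was higher in *hmr-22* than in Col-0 by 1.1 on the log2 scale at 27°C and 1.41 at 20°C, but lower by 0.48 and 0.54 for the values as deposited, so its direction there depends on the scaling. With median-ratio scaling the 27°C difference of *BBX21* was 0.82, under the fold. *BBX22* (AT1G78600), a partner of HY5 that is itself degraded through COP1, had 9.81, 6.42, 10.4 and 10.1 scaled FPKM in *hmr-22* at 27°C and 4.65, 6.06, 7.52 and 6.13 at 20°C, a log2 change of 0.57 (SE 0.17) against -0.46 (SE 0.17) in Col-0. In *pif4-2* and *med14-2* the log2 changes of *BBX22* were -0.89 and -0.81 (SE 0.17 each). Its warm and cool libraries did not overlap in *pif4-2*, *med14-2* or Col-0 and overlapped in *hmr-22*, and none of the 4 changes passed. As deposited, the *BBX22* groups overlapped in *pif4-2*, *med14-2* and Col-0 (log2 changes -0.43, -0.48 and 0.03), so their separation depends on the scaling. In *hmr-22* the deposited values did not overlap, and *BBX22* rose there by 1.36 on the log2 scale (limma adjusted p = 3.4e-06). Its log2 difference between *hmr-22* and Col-0 was 0.57 at 27°C and -0.46 at 20°C, neither passing, against -0.97 and a passing -2.29 as deposited, so this direction too depends on the scaling at 27°C.

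*BBX24* and *BBX25* (AT1G06040 and AT2G31380, STO and STH), a close pair that interfere with HY5 and its partners, had the most alike group means of any pair of the 10 over all 8 groups, though not over the 6 without *hmr-22*. *BBX24* had 285, 383, 305 and 364 scaled FPKM in *hmr-22* at 27°C, against 59.0, 56.4, 62.2 and 59.8 in Col-0, a log2 difference of 2.48 (SE 0.14, limma adjusted p = 1.8e-16). At 20°C it had 301, 295, 301 and 382 in *hmr-22*, against 40.7, 34.9, 36.0 and 34.9 in Col-0 (log2 difference 3.11, SE 0.14). No *hmr-22* library came near a Col-0 library. For *BBX24* as deposited, the *hmr-22* libraries had 171 to 204 FPKM against 98.9 to 102 FPKM for Col-0 at 27°C, and 59.3 to 135 against 39.2 to 49.5 FPKM at 20°C, so it was higher in *hmr-22* before scaling too (log2 0.89, below the fold of 2, and 1.15, which passed). *BBX25* had 66.3 to 86.2 scaled FPKM in *hmr-22* at 27°C and 67.8 to 89.1 at 20°C, against 11.1 to 14.7 and 6.58 to 10.2 in Col-0 (log2 differences 2.56 and 3.13, SE 0.17 each). As deposited these *BBX25* differences were 0.98, short of the threshold, and 1.18, which passed.

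With warmth, the *BBX24* values in Col-0 (56.4 to 62.2 at 27°C, 34.9 to 40.7 at 20°C) did not overlap, and the log2 change of 0.69 (SE 0.14, limma adjusted p = 0.00029) stayed under the fold of 2. *BBX25* behaved alike, at 11.1 to 14.7 and 6.58 to 10.2 (log2 change 0.58, SE 0.17). For the values as deposited both passed in Col-0 (1.21 and 1.08). In *med14-2*, *BBX25* had 10.2, 11.8, 14.0 and 15.4 scaled FPKM at 27°C and 18.0, 16.3, 26.2 and 25.9 at 20°C, and its log2 change of -0.72 (SE 0.17) did not pass. At 20°C those *med14-2* values of *BBX25* were all above Col-0, and it was higher there by 1.32 on the log2 scale (SE 0.17, limma adjusted p = 1.6e-06). The corresponding *BBX24* values were 56.4, 53.1, 63.7 and 73.6, with a log2 difference of 0.74 (SE 0.14) that stayed under the fold. At 20°C the scaled values of *BBX25* and *BBX24* in *pif4-2* were all above Col-0 too. Their log2 differences of 0.94 and 0.78 stayed under the fold. That of *BBX25* passed without *pif4-2* replicate 2 (1.11) or Col-0 replicate 4 (1.04) at 20°C, and as deposited its groups overlapped.

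*BBX28* (AT4G27310, chromosome 4, 13675537 to 13677055, plus strand), a single B-box protein that binds HY5 and lowers its DNA binding, had the largest temperature difference of the 10 genes in Col-0. It had 9.33, 7.81, 8.54 and 7.26 scaled FPKM in Col-0 at 27°C, against 4.03, 2.81, 3.45 and 2.11 at 20°C. As deposited these were 15.6, 13.8, 14.0 and 12.4 FPKM against 4.91, 3.29, 3.77 and 2.72. On both scales every warm library was above every cool one, and *BBX28* rose by 1.37 on the log2 scale (SE 0.23, 95% interval 0.90 to 1.84, limma adjusted p = 3.5e-05).

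In the libraries labelled *med14-2* the order of the temperatures was turned round. There *BBX28* had 1.56, 2.27, 3.77 and 3.44 scaled FPKM at 27°C, against 6.87, 5.52, 7.26 and 9.47 at 20°C, with no overlap, and fell by 1.37 on the log2 scale (SE 0.23, limma adjusted p = 3.9e-05). That fall missed the threshold for the values as deposited (-1.06) and in a fit of those 2 groups alone (-1.39), and it kept passing without replicate 1 at 27°C or any other single library. In *pif4-2* *BBX28* had 12.9, 12.2, 11.0 and 10.9 scaled FPKM at 27°C, against 11.8, 6.74, 13.4 and 14.5 at 20°C (log2 change 0.07, 95% interval -0.40 to 0.54). In *hmr-22* it had 46.8, 47.4, 32.7 and 52.4 at 27°C, against 54.2, 40.3, 37.6 and 56.2 at 20°C (log2 change -0.07, 95% interval -0.54 to 0.40). The groups overlapped in both genotypes.

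The 8 group means of *BBX28* ran, in scaled FPKM, from 47.1 ± 9.45 in *hmr-22* at 20°C and 44.8 ± 8.45 in *hmr-22* at 27°C, through 11.7 ± 0.982 in *pif4-2* at 27°C, 11.6 ± 3.42 in *pif4-2* at 20°C, 8.23 ± 0.898 in Col-0 at 27°C and 7.28 ± 1.64 in *med14-2* at 20°C, to 3.10 ± 0.828 in Col-0 at 20°C and 2.76 ± 1.03 in *med14-2* at 27°C (SD, n = 4 each). Only 2 of the 7 steps in this order separated the libraries of neighbouring groups, that from *hmr-22* to *pif4-2* and that from *med14-2* at 20°C to Col-0 at 20°C. At 20°C all 3 mutants were above Col-0, by 1.80 in *pif4-2* (SE 0.23, limma adjusted p = 1.1e-05), 3.83 in *hmr-22* (1.0e-15) and 1.18 in *med14-2* (0.00054) on the log2 scale. The *med14-2* difference at 20°C lost its call without any one of *med14-2* replicates 1, 3 or 4 or Col-0 replicates 2, 3 or 4 (log2 1.01 to 1.24) and for the values as deposited (1.24). At 27°C *BBX28* was higher than in Col-0 by 2.39 in *hmr-22* and lower by 1.56 in *med14-2* (SE 0.23, limma adjusted p = 8.9e-06), and the *pif4-2* difference of 0.50 did not pass. In *hmr-22* the deposited values gave 0.82 at 27°C, short of the threshold, and 1.90 at 20°C.

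The letters of a G-box (CACGTG), the palindrome bound by HY5 and by PIF factors, occur once in the 1000 bases before *BBX28*, beginning 514 bases before its start, and in 14.8% of all such windows. No other gene of the 10 has one. *BBX24*, whose level was highest of all in *hmr-22*, has a PBE-box 364 bases before its start. The 60 bases around each are shown with the box in capitals.
BBX28, chr4:13674996-13675055, plus strand: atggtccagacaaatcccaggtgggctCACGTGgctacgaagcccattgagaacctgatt
BBX24, chr1:1830315-1830374, minus strand: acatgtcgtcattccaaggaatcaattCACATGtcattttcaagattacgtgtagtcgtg
Of the others, *HYH* and *BBX20* hold a PBE-box and *BBX22* and *BBX25* a T/G-box in their 1000 bases, and *BBX21*, *BBX31* and *BBX32* hold none of these boxes. A C-box (GACGTC), present in 7.15% of windows, was in none of the 10. Sequences are those of the TAIR10 chromosomes in RefSeq.

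*BBX31* (AT3G21890, MIP1B) had 2.58, 3.77, 2.93 and 2.14 scaled FPKM in *pif4-2* at 27°C, against 0.839, 0.657, 0.938 and 1.21 in Col-0. The groups did not overlap, and *BBX31* was higher in *pif4-2* by 1.42 on the log2 scale (SE 0.28, limma adjusted p = 0.00028), on 55 to 82 fragments per library against 17 to 36. The call was lost without *pif4-2* replicate 2 or 3 or Col-0 replicate 2 (log2 1.33 to 1.42). At 20°C it had 2.02, 2.03, 4.01 and 3.47 in *pif4-2* and 1.01, 0.656, 1.12 and 0.882 in Col-0, and the log2 difference of 1.38 just missed the threshold (limma adjusted p = 0.0013). In *hmr-22* it had 5.70, 3.79, 4.67 and 4.54 scaled FPKM at 27°C and 8.72, 5.42, 18.6 and 14.2 at 20°C, higher than Col-0 by 2.09 and 3.24 on the log2 scale (0.70, which did not pass, and 1.39 as deposited). Its fall with warmth in *hmr-22*, 1.15 on the log2 scale (SE 0.28, limma adjusted p = 0.00066), rested on libraries that overlapped. It did not pass for the values as deposited (-0.28), with a pseudocount of 0.1 (-1.18), by voom on the recovered fragments (-1.05), in a fit of those 2 groups alone (-1.26), or without *hmr-22* replicate 3 or 4 at 20°C or replicate 2, 3 or 4 at 27°C (-0.89 to -1.16). In *med14-2* *BBX31* had 0.265 to 0.417 at 27°C, from 7 to 11 fragments, and 0.735 to 1.69 at 20°C, and the log2 change of -1.12 did not pass.

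*BBX32* (AT3G21150, EIP6) was the gene of the 10 with the lowest level in Col-0 and was higher in every mutant at 20°C. At 20°C it had 1.59, 1.06, 1.61 and 1.38 scaled FPKM in *pif4-2*, 6.81, 3.96, 4.94 and 9.18 in *hmr-22*, and 1.63, 1.62, 1.93 and 1.67 in *med14-2*, against 0.259, 0.205, 0.480 and 0.438 in Col-0. No mutant library overlapped with Col-0. The log2 differences were 1.49 in *pif4-2* (SE 0.24, limma adjusted p = 0.00025), 3.40 in *hmr-22* (8.4e-14) and 1.75 in *med14-2* (6.7e-06). The *pif4-2* call at 20°C was lost without any one of *pif4-2* replicates 1, 3 or 4 or Col-0 replicates 1 or 2 (log2 1.37 to 1.49), for the values as deposited (1.39) and with a pseudocount of 1 (0.84). As deposited, the 20°C difference in *hmr-22* was 1.68 and still passed. Seed markers were raised in *med14-2* replicate 1 at 20°C. Without that library *BBX32* and *BBX25* kept their *med14-2* calls against Col-0 at 20°C, and *BBX28* lost its own (log2 1.20, limma adjusted p = 0.0017). The difference between *med14-2* and Col-0 in the log2 change of *BBX32* with warmth, given below, was also lost (-1.17, limma adjusted p = 0.057).

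At 27°C *BBX32* had 2.06, 1.81, 1.96 and 2.17 scaled FPKM in *pif4-2*, 3.14, 6.88, 4.83 and 3.38 in *hmr-22* and 0.766, 0.843, 0.813 and 0.759 in *med14-2*, against 0.899, 0.298, 0.354 and 0.345 in Col-0. The *pif4-2* and *hmr-22* libraries were all above Col-0 (log2 differences 1.70 and 2.74, SE 0.24, limma adjusted p = 4.3e-06 and 1.5e-11), while the *med14-2* libraries overlapped with the single high Col-0 library (log2 difference 0.60, SE 0.24). As deposited both still passed, at 1.68 in *pif4-2* and 1.45 in *hmr-22*. Its log2 changes with warmth were 0.45 in *pif4-2*, -0.43 in *hmr-22*, -0.91 in *med14-2* and 0.24 in Col-0, and none of these passed.

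Whether the response to warmth itself differed from that of Col-0 was tested as the difference of the log2 changes, at a limma adjusted p under 0.05. In *pif4-2* 1 of the 10 genes was below Col-0 (0.943% of all tested genes were) and none above (1.54%). In *hmr-22* 3 were below (16.5%) and 3 above (29%). In *med14-2* 4 were below (4.37%) and none above (2.03%). *BBX28* was below in all 3 mutants, by -1.30 in *pif4-2* (SE 0.32, limma adjusted p = 0.022), -1.44 in *hmr-22* (SE 0.32, 0.00059) and -2.73 in *med14-2* (SE 0.32, 8.3e-07), with the same Col-0 libraries in each. In *med14-2* and *hmr-22* this held in every alternative tried. In *pif4-2* it did not hold for the values as deposited (-1.34) or without any one of *pif4-2* replicates 3 or 4 at either temperature, Col-0 replicates 2 or 4 at 20°C or Col-0 replicates 1 or 3 at 27°C (-1.1 to -1.24).

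The other passing differences in the libraries labelled *med14-2* were *BBX24* (-1.05, SE 0.19, limma adjusted p = 0.00047), *BBX25* (-1.30, SE 0.24, 0.00041) and *BBX32* (-1.15, SE 0.35, 0.040). Of the 10 genes, 9 had a difference below 0 there, among them the promoting genes *BBX20* (-0.92) and *BBX21* (-0.51), which did not pass but did in a fit without the *hmr-22* libraries (-1.0 and -0.52, limma adjusted p = 0.030 and 0.0081) and in a fit of only the groups compared. The *BBX32* difference was lost when any single library was left out other than Col-0 replicates 3 or 4 at 20°C or 2, 3 or 4 at 27°C, with values of -0.90 to -1.17, and also with a pseudocount of 1 (-0.71) and by voom (-1.43). In *hmr-22* the genes below Col-0 were *BBX24* (-0.63), *BBX28* and *BBX31* (-1.14), and those above were *HY5* (0.78, SE 0.26, limma adjusted p = 0.015), *BBX20* (0.82) and *BBX22* (1.03, SE 0.24, 0.00090). Those of *BBX24* and *BBX31* did not pass for the values as deposited (-0.26 and -0.70). The *BBX31* difference was also lost without *hmr-22* replicate 3 at 20°C (-0.88) and by voom (-1.02), and that of *BBX20* without any one of 8 libraries (0.62 to 0.81) and with median-ratio scaling (0.68). In a fit of only the *hmr-22* and Col-0 groups, *HY5* (0.76, limma adjusted p = 0.073) and *BBX20* (0.76, 0.051) did not pass. *HY5* in *pif4-2* had a difference as large (0.81, SE 0.26) that did not pass (limma adjusted p = 0.10), as did *HYH* (1.07, SE 0.38, 0.15), and both passed in a fit without the *hmr-22* libraries (0.85 and 1.1).

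**Figure D4:**
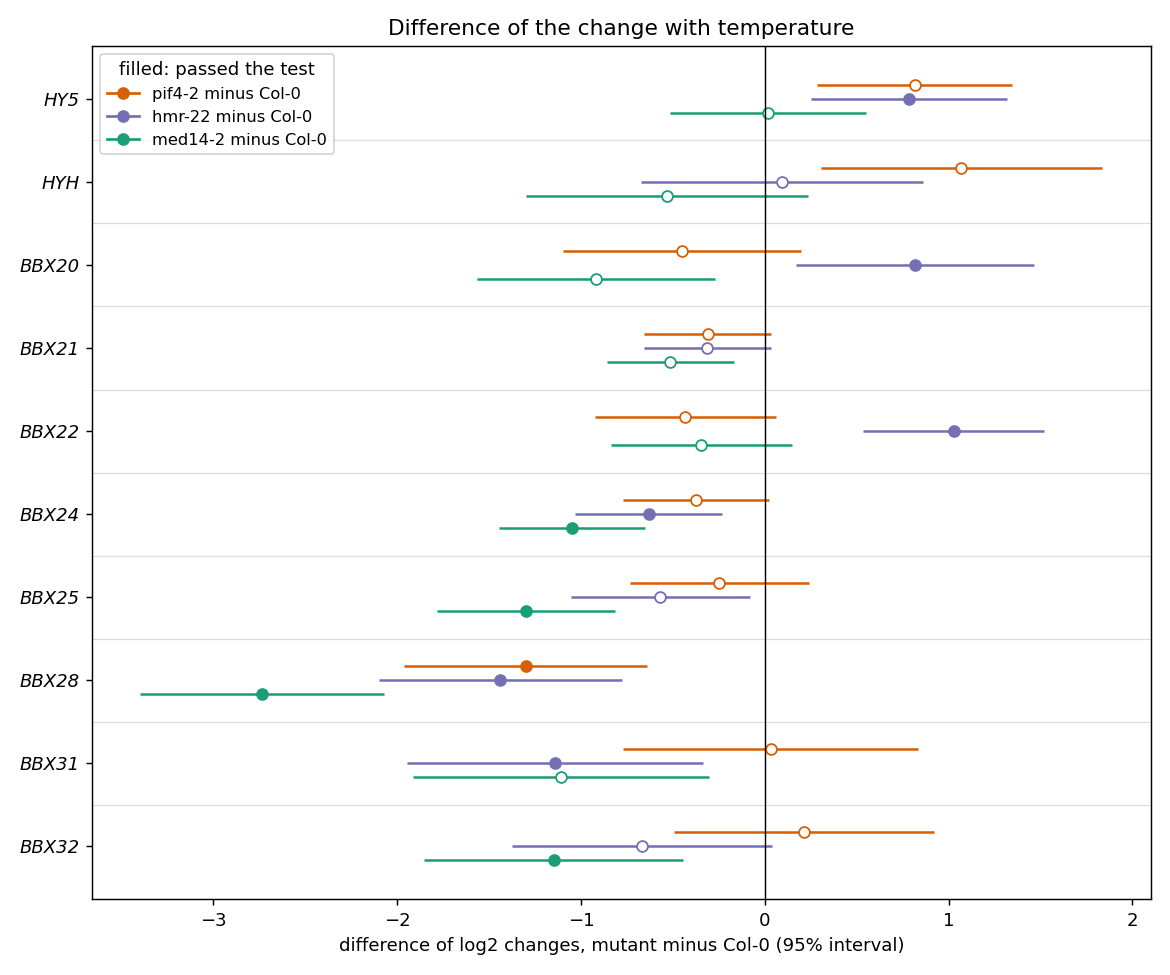
Difference of the log2 change with warmth between each mutant and Col-0 for each gene, with 95% intervals and filled points where the difference passed at a limma adjusted p under 0.05. *BBX28* is filled and below 0 in all 3 mutants and lowest in *med14-2* (-2.73), and the *hmr-22* points of *HY5*, *BBX20* and *BBX22* are filled above 0.

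Over the 8 group means of scaled log2 FPKM, which share the scaling of their libraries, *BBX24* and *BBX25* had a Pearson correlation of 0.98, *BBX25* and *BBX32* 0.96, and *BBX24* and *BBX28* 0.95. Over the 6 groups without *hmr-22* these were 0.89, 0.95 and 0.89. *BBX20* and *BBX22* had 0.57 over 8 groups and 0.96 over 6, and *BBX21* went with *BBX24* over 8 groups (0.84) and not over 6 (-0.51). Outside the 10 genes, the 3 named genes with the pattern most like *BBX28* over the 8 groups were *LHCB2.1* (0.98), a light-harvesting protein of photosystem II, *CRD1* (0.98), which acts in chlorophyll synthesis, and the protein kinase gene *CIPK6* (0.98). *LHCB2.1* averaged 301 FPKM as deposited in *med14-2* at 27°C and 995 at 20°C, against 1001 and 339 in Col-0. It was also higher in *hmr-22* than in Col-0 as deposited, as *BBX28* was. *CRD1* was lower there, at 668 FPKM at 27°C and 376 at 20°C against 915 and 542 in Col-0. *CIPK6* was lower in *hmr-22* too, and in *med14-2* averaged 103 FPKM at 27°C and 93.4 at 20°C. The likeness of *CRD1* and *CIPK6* to *BBX28* in *hmr-22* thus rests on the scaling. Likeness as deposited was not tested. The named genes most like *HY5* were *MYB49* (0.94), *MT1B* (0.93) and *ALB3* (0.92), which inserts proteins into thylakoids.

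Genes under HY5 were read from lists of 11 flavonoid genes and 9 other light-induced genes. Of the flavonoid genes none rose with warmth in any genotype, where 1.62 to 13.8% of all tested genes did. In *pif4-2* 4 of them fell (2.7% of all tested genes), in *hmr-22* 4 (8.3%), in *med14-2* 4 (2.83%) and in Col-0 5 (2.99%). Their median log2 changes were -1.43, -0.25, -1.0 and -1.37 in that order. For the values as deposited 1 fell in *pif4-2* (0.853%), 1 in *hmr-22* (2.66%), 3 in *med14-2* (1.46%) and 1 in Col-0 (1.43%). *F3H*, which makes dihydroflavonols, fell by 2.12 in *pif4-2*, 2.41 in *hmr-22*, 2.43 in *med14-2* and 2.41 in Col-0 on the log2 scale. *CHS*, the first enzyme of the pathway, fell by 1.99 in *pif4-2* and 1.82 in Col-0. As deposited, its log2 changes were -1.51 in *pif4-2*, -0.46 in *hmr-22*, -1.73 in *med14-2* and -1.31 in Col-0. Against Col-0, 8 flavonoid genes were lower in *hmr-22* at each temperature (24% of all tested genes at 27°C and 28% at 20°C). None was higher (23.6% and 21.5%). The lower genes were led at 20°C by the anthocyanin enzyme genes *LDOX* (-5.88) and *DFR* (-5.77). As deposited, *LDOX* averaged 0 FPKM in *hmr-22* at 20°C and *DFR* 0.053, against 19.1 and 25.3 in Col-0. Both are at the floor in *hmr-22*, so these sizes rest on the pseudocount of 0.25. In *med14-2* 2 flavonoid genes were lower at each temperature (1.85% and 0.717%). None passed in *pif4-2* at either temperature.

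Of the 9 other light-induced genes none rose with warmth, where 1.62 to 13.8% of all tested genes did. In *pif4-2* 2 of them fell (2.7% of all tested genes), in *hmr-22* 3 (8.3%), in *med14-2* 4 (2.83%) and in Col-0 2 (2.99%). As deposited 2 of them also rose in *pif4-2* (10.8%) and 2 in Col-0 (8.59%). *ELIP1*, which protects thylakoids in strong light, fell by 3.38 in *pif4-2*, 3.15 in *hmr-22*, 3.62 in *med14-2* and 2.77 in Col-0 on the log2 scale. *RUP1* and *RUP2*, which switch off the UV-B receptor, were higher in *hmr-22* by 5.82 and 3.07 at 27°C and 5.00 and 3.42 at 20°C, and as deposited by 4.39 and 1.55 and by 3.08 and 1.48. Of the 9 genes, 4 were higher and 1 lower in *hmr-22* than in Col-0 at 27°C (23.6% and 24% of all tested genes). At 20°C 4 were higher and none lower (21.5% and 28%). As deposited 2 were higher and 2 lower at 27°C (6.74% and 56.5%), and 3 higher and 4 lower at 20°C (4.72% and 60.4%). At 27°C 2 were higher in *pif4-2* (3.38%) and at 20°C 1 (0.677%), with none lower, and none passed in *med14-2* at either temperature. *GLK2*, a regulator of chloroplast genes, had a response to warmth below that of Col-0 in *med14-2* (-1.54, limma adjusted p = 0.00018) and in *hmr-22* (-1.04, 0.0018), where it was -0.67 as deposited.

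None of the 8 genes of the COP1/SPA and DET1 complexes passed in *pif4-2*, *med14-2* or Col-0 with warmth, or between *pif4-2* or *med14-2* and Col-0. In *hmr-22* 4 rose with warmth (13.8% of all tested genes did), among them *SPA2* (2.35) and *SPA1* (2.07). At 20°C both were lower than in Col-0 (-2.26 and -2.32). Of the 8, 1 was higher and 1 lower in *hmr-22* at 27°C (23.6% and 24% of all tested genes), and 1 higher and 3 lower at 20°C (21.5% and 28%). As deposited none was higher, with 5 lower at 27°C (56.5%) and 7 at 20°C (60.4%). The other B-box family had 24 genes, of which 20 were tested. With warmth 5 rose in Col-0 (2.24% of all tested genes did), led by *COL7* (2.82) and *COL8* (2.00). In *pif4-2* 3 rose (3%) and in *hmr-22* 1 (13.8%). None did in *med14-2* (1.62%), where *COL2* fell by 1.21. The response to warmth was below that of Col-0 in *med14-2* for 8 of the 20 (4.37% of all tested genes) and above it for 1 (2.03%). In *hmr-22* it was below for 7 (16.5%) and above for 3 (29%), while in *pif4-2* 1 was below (0.943%) and none above (1.54%). As deposited these counts were 7 below (4.49%) and none above (1.53%) in *med14-2*, 3 below (11.2%) and 3 above (27.7%) in *hmr-22*, and none in *pif4-2*. *COL7* was lowest in both *med14-2* (-3.00) and *hmr-22* (-3.52). Against Col-0, 9 were higher and 2 lower in *hmr-22* at 27°C (23.6% and 24% of all tested genes). At 20°C 10 were higher and none lower (21.5% and 28%). *COL5* led at both temperatures (2.85 and 3.24). These counts turn on the scaling too: as deposited, 3 were higher and 7 lower at 27°C (6.74% and 56.5%) and 4 higher and 6 lower at 20°C (4.72% and 60.4%). *COL5* was still higher (1.26 and 1.28).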

How the data were processed

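RNA from whole seedlings was sequenced with a stranded mRNA kit. Per the study's methods, paired-end reads were mapped by the authors against TAIR10 with Araport11 genes, using CLC Genomics Workbench version 21, and FPKM were deposited for each gene in each library. Replicates were not pooled. No per-sample column was left unused.

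FPKM values were scaled by an unweighted trimmed mean of M values (30% of M and 5% of A trimmed). Genes at 0.5 FPKM or more in at least 4 libraries were kept (19937). limma 3.58.1 in R 4.3.3 was fitted to log2(FPKM + 0.25) with 8 group means and robust trended variances, with Benjamini-Hochberg adjustment over all genes of each comparison. Folds are on that scale, which understates changes of low genes. P-values measure the spread among the deposited biological replicates, pooled for each gene over all 8 groups. The median SD among replicates on the log2 scale was 0.46 in *hmr-22* at 20°C and 0.32 at 27°C, against 0.15 to 0.21 in the other groups. The shared SE therefore tends to be too small for *hmr-22* and too large for the other genotypes. The study tested counts in its own software, and that test could not be run on FPKM. The fit was tested on simulated data. Dividing by exon length and a total per library gave whole fragments (within 0.05) for 99.2 to 99.3% of values up to 1000 fragments, hence the depths. Exons, sequences and 1000-base windows came from the RefSeq copy of TAIR10.1, whose coordinates matched 27438 of 27445 nuclear genes. Python 3.11.15 was used for tables.

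The genes and lists were chosen with earlier results of these data known. All 10 genes are named, with the 3 genes most correlated with *HY5* and with *BBX28*, up to 2 passing genes of each list per comparison, and *PIF4*, *HMR* and *MED14*. Alternatives were median-ratio or no scaling, no filter, pseudocounts of 0.1 and 1, a replicate block, fits of only the groups compared or without *hmr-22*, other thresholds, and each library left out. A voom fit of the recovered fragments was chosen after seeing the data.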

Additional observations from a re-analysis of the deposited data

Results flagged for a closer look

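Within 80 sets of 4 replicates (10 genes in 8 groups), 8 held a library far from the other 3 by Dixon's ratio for scaled FPKM, where chance gives about 1 in 20. The values in scaled FPKM were 3.46 for *HY5* in *med14-2* at 20°C (the others 4.08 to 4.17), 11.6 for *BBX20* in *hmr-22* at 27°C (9.45 to 9.71), 15.4 for *BBX21* in *pif4-2* at 27°C (12.6 to 13.0) and 6.42 for *BBX22* in *hmr-22* at 27°C (9.81 to 10.4). The others were 382 for *BBX24* in *hmr-22* at 20°C (295 to 301), 11.4 for *BBX25* in *pif4-2* at 20°C (18.0 to 18.6), 1.93 for *BBX32* in *med14-2* at 20°C (1.62 to 1.67) and 0.899 for *BBX32* in Col-0 at 27°C (0.298 to 0.354). The last is Col-0 replicate 1, on 30 fragments against 9 to 12.

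The response to warmth differed from that of Col-0 by the test of the difference itself in 11 cases. On the log2 scale these were *BBX28* in *pif4-2* (-1.30), *hmr-22* (-1.44) and *med14-2* (-2.73), *BBX24* in *hmr-22* (-0.63) and *med14-2* (-1.05), *BBX25* (-1.30) and *BBX32* (-1.15) in *med14-2*, and *BBX31* (-1.14), *HY5* (0.78), *BBX20* (0.82) and *BBX22* (1.03) in *hmr-22*.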

How the results depend on the processing

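Of the 39 passing results for a single gene, 19 kept direction and threshold in every alternative run for them and 20 lost the threshold in at least 1, among which *BBX21* in *hmr-22* against Col-0 turned to -0.48 at 27°C and -0.54 at 20°C without scaling. Numbers of the 10 genes passing moved as follows, with the part of all tested genes passing in parentheses. Without scaling, 0 passed with warmth in *pif4-2* (11.6%), 1 in *med14-2* (6.03%) and 3 in Col-0 (10%), 2 in *hmr-22* against Col-0 at 27°C (63.3%), 1 in *pif4-2* at 20°C (0.276%), and 0 for the *pif4-2* difference of responses (1.57%). With a pseudocount of 1, 0 passed with warmth in *pif4-2* (4.47%), 1 in *med14-2* (3.37%) and 1 in *pif4-2* against Col-0 at 20°C (0.813%), and with 0.1, 0 passed with warmth in *hmr-22* (22.4%). With only the groups compared, 0 passed with warmth in *pif4-2* (6.46%) or *hmr-22* (17.4%), 1 passed in *med14-2* (4.77%), and 3 and 7 for the differences of *pif4-2* (9.53%) and *med14-2* (15.3%). Without the *hmr-22* libraries, 3 (9.55%) and 7 (13.6%) passed for those differences. By voom on the fragments, 0 passed with warmth in *hmr-22* (20.7%) and 3 for the *pif4-2* difference (5.03%). At an adjusted p under 0.05 alone, 3 passed with warmth in *pif4-2* (29.7%), 3 in *hmr-22* (61%), 8 in *med14-2* (22.2%) and 6 in Col-0 (24.7%), 7 in *pif4-2* (31.1%) and 5 in *med14-2* (13.7%) against Col-0 at 27°C, and 6 (11.6%) and 5 (13.1%) at 20°C. At an adjusted p under 0.001, 0 passed for the *pif4-2* (0.371%) and 2 for the *hmr-22* difference (21%). Leaving out 1 library gave 0 to 1 with warmth in *pif4-2* and 0 to 1 in *hmr-22*, 2 to 3 for *pif4-2* against Col-0 at 27°C, 1 to 3 for *pif4-2* and 2 to 3 for *med14-2* against Col-0 at 20°C, and 0 to 1, 5 to 8 and 3 to 4 for the differences of *pif4-2*, *hmr-22* and *med14-2*. With every library in, the parts of all tested genes higher and lower with warmth were 3 and 2.7% in *pif4-2* and 13.8 and 8.3% in *hmr-22*. Against Col-0 they were 3.38 and 1.1% for *pif4-2* at 27°C, and 0.677 and 0.105% for *pif4-2* and 1.24 and 0.717% for *med14-2* at 20°C. For the differences they were 1.54 and 0.943% in *pif4-2*, 29 and 16.5% in *hmr-22* and 2.03 and 4.37% in *med14-2*. The cause of the moves was not tested.

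Without scaling, the part of all passing genes that was higher was 92.7% (52.6% with scaling) with warmth in *pif4-2*, 92.6% (62.4%) in *hmr-22*, 75.8% (36.4%) in *med14-2* and 85.7% (42.8%) in Col-0. It was 38.6% (75.5%) in *pif4-2* and 10.6% (49.6%) in *hmr-22* against Col-0 at 27°C, 43.6% (86.5%) and 7.25% (43.4%) at 20°C, and 50.3% (62.1%) for the *pif4-2* difference.

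Same-numbered replicates were not treated as paired. All 4 correlations of their deviations were over 0.1 in 3 of 28 pairs of groups (mean 0.0812, against -0.027 for other numbers). This rule cannot exclude a weaker link between replicates of the same number. With a replicate block, *BBX31* in *pif4-2* against Col-0 at 20°C (1.38) and the differences of *BBX25* in *hmr-22* (-0.57) and *BBX31* in *med14-2* (-1.11) also passed, and no passing gene was lost.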
